A study of Mus musculus with 3 samples.

Results

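The cells described here are T cells of mouse blood that carried messenger RNA of Ccl5, Nkg7 or both. A barcode, the tag of one droplet and in most cases of one cell, was a member when it had at least 200 genes, at most 10% mitochondrial UMIs, at least 2 UMIs of Cd3e, Cd3d and Cd3g together, at least 3 UMIs of Ccl5 and Nkg7 together, no UMI of the NK cell genes Ncr1 and Klre1, at most 1 UMI of the B cell genes Cd79a and Cd79b, and less than 3% of its UMIs in the neutrophil genes S100a8 and S100a9. A UMI, or unique molecular identifier, stands for one captured RNA molecule. In all 818 of 22204 barcodes were members, out of 18885 that passed the limits on genes and mitochondrial UMIs. The members were thus chosen by the measured UMIs of Ccl5, Nkg7 and the Cd3 genes, and those levels are a description and support nothing else.

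The study measured leukocytes of C57/BL6J mice, drawn retro-orbitally, by droplet 3' single-cell RNA sequencing after lysis of the red cells. Its labels name control mice (Con, 0 h), mice sleep-deprived for 24 h (SD24h) and mice sleep-deprived for 48 h (SD48h), with 1 library per group, each pooled from 3 mice. The age and sex of the mice are not given in the sources used here. The deposited barcodes end in 1 of 3 numbers, called libraries 1, 2 and 3 below, and no label ties a number to a group. No comparison between Con, SD24h and SD48h was therefore made, and the libraries stand in no order of sleep loss. Triplets of values below are for libraries 1, 2 and 3 in that order. With 1 library per group no test between groups is possible. Sets of barcodes were compared within each library without a test, because the UMIs that chose the sets were measured in the same barcodes, so no p-value is given. Every interval is an exact 95% interval (Clopper-Pearson for shares, Poisson for summed UMIs, conditional for ratios) that covers counting error only. Where a count was 0, the limit given is 3 counts over the number of barcodes, which is below the exact bound.

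CCL5 is a chemokine that antigen-experienced CD8 T cells and NK cells make and store, and NKG7 is a membrane protein of cytotoxic granules. Central memory T cells keep CCR7, which brings them into lymph nodes, whereas effector T cells lose it and load granules with granzymes. Mice also hold CD8 T cells with a memory phenotype, known by CD44, CD122 (Il2rb), Ly6C and CXCR3, a part of which arises without contact with a foreign antigen. The T-box factors T-bet and Eomes, and the factor RUNX3, are known regulators of such genes in CD8 T cells.

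The promoters of Nkg7, Cxcr3 and Ly6c2 are shown because Nkg7 chose most members. Cxcr3 and Ly6c2 are among the genes higher in members than in CD8 T cells without Ccl5 and Nkg7 UMIs in what follows. Each is the 250 bases before the start site on the gene's own strand, from RefSeq on build GRCm38.p6. Capitals mark matches, on either strand, to a T-box core (GTGTGA), a RUNX site (TGTGGT) and an ETS core (AGGAAG).
Nkg7, chr7:43436888-43437137, plus strand: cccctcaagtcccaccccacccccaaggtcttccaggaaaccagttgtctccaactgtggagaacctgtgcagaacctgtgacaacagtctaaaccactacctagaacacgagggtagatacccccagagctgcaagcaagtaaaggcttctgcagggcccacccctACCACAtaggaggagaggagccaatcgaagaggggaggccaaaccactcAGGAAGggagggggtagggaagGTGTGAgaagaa
Cxcr3, chrX:101734148-101734397, minus strand: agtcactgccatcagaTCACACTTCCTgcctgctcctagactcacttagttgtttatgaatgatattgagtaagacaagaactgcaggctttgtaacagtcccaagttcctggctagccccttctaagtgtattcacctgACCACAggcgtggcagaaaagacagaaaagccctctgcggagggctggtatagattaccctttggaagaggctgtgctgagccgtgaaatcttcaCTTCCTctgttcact
Ly6c2, chr15:75111972-75112221, minus strand: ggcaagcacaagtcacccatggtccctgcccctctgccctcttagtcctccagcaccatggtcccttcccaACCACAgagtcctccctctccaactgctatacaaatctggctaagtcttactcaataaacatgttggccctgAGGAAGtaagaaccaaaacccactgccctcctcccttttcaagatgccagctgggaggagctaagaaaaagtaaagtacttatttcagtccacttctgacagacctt
Nkg7 held 1 match to each of the motifs. Cxcr3 held 1 T-box core, 1 RUNX site and 2 ETS cores, and the T-box match shares 1 base with an ETS match in the run TCACACTTCCT. Ly6c2, of which the first of the listed start sites is shown, held 1 RUNX site and 1 ETS core. The promoter of Eomes, searched as well and not shown, held no match to any of the motifs. Ccl5 and Il2rb were also looked for and had no promoter entry. Of the 32851 mouse promoters of the same length, 12.3% held the T-box core, 14.0% the RUNX site and 29.5% the ETS core, so single matches were common. A match is a description of letters and not a binding site. In the GRCm38 annotation Nkg7 lies on chromosome 7 at 43437073 to 43438249 on the plus strand, and Ccl5 on chromosome 11 at 83525778 to 83530518 on the minus strand. Cxcr3 lies on chromosome X at 101731535 to 101734269 and Ly6c2 on chromosome 15 at 75108158 to 75111970, both on the minus strand and all as protein-coding genes. The stretches shown for Nkg7 and Cxcr3 reach into these annotated genes, so their start sites in RefSeq and in this annotation differ.

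Members made up 5.05%, 2.43% and 5.41% of kept barcodes, being 360, 145 and 313 barcodes of 7122, 5978 and 5785. Within the T cell gate, which drops the requirement for Ccl5 and Nkg7 and holds 1155, 522 and 795 barcodes, they were 31.2% (28.5 to 33.9), 27.8% (24.0 to 31.8) and 39.4% (36.0 to 42.9). Library 3 stood above the other libraries in this share and their intervals did not meet those of library 3. The libraries held 40807434, 30114546 and 36523283 UMIs over all barcodes. Members were deeper than the barcodes they are set against, with median UMIs of 7729, 7898 and 7662, against 5550.5, 5887 and 5659 in T-gate barcodes without a Ccl5 or Nkg7 UMI. A rule of at least 3 UMIs finds more members among deeper barcodes: with every barcode thinned to 1500 UMIs the members' share of the T gate was 10.3%, 6.11% and 10.2%.

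The members were CD8 T cells almost throughout. On the CD8 side, meaning a UMI of the coreceptor genes Cd8a or Cd8b1 and none of Cd4, stood 339, 139 and 294 members, or 94.2% (91.2 to 96.4), 95.9% (91.2 to 98.5) and 93.9% (90.7 to 96.3). The CD4 side held 2 members in library 1, 5 in library 3 and 0 of 145 in library 2, which allows a share of up to 2.07%. A further 5, 1 and 9 members had UMIs of both coreceptors, and 14, 5 and 5 had UMIs of neither. Seen from the other direction, 62.2%, 63.2% and 75.4% of CD8-side T-gate barcodes were members, against 0.671% of CD4-side T-gate barcodes in library 1, 0 of 155 in library 2 (up to 1.94%) and 2.44% in library 3. Trac, which encodes the constant region of the T cell receptor alpha chain, had a UMI in 89.2%, 92.4% and 91.1% of members, against 4.67%, 7.69% and 4.90% of NK-gate barcodes, which lack Cd3 UMIs, and 57 of 4077, 10 of 1381 and 29 of 1937 B-gate barcodes.

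**Figure D1:**
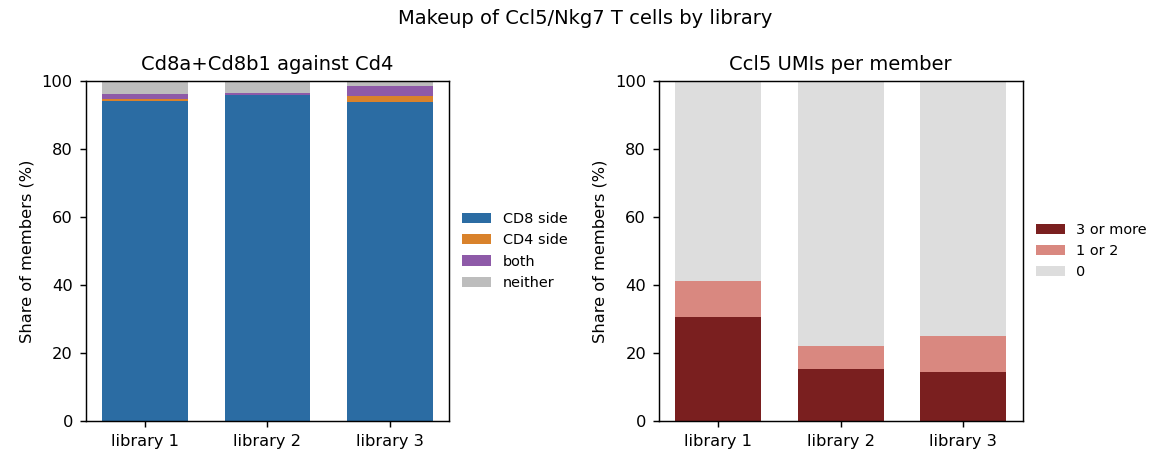
Make-up of the members in each library, as the percentage of members on the CD8 side, the CD4 side, with both or with neither coreceptor, and with 3 or more, 1 or 2 or no Ccl5 UMIs. The CD8 side held between 93.9% and 95.9% of members, and members with 3 or more Ccl5 UMIs were 30.6% in library 1, 15.2% in library 2 and 14.4% in library 3.

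Most members qualified through Nkg7 alone. Members with no Ccl5 UMI numbered 212, 113 and 235 (58.9%, 77.9% and 75.1%), members with 1 or 2 Ccl5 UMIs 38, 10 and 33, and members with 3 or more 110, 22 and 45. The last were 30.6% (25.8 to 35.6), 15.2% (9.76 to 22.1) and 14.4% (10.7 to 18.8) of members, and of CD8-side members alone 28.0%, 13.7% and 12.6%. Library 1 was highest and its interval lay above those of the other libraries. Among members with 3 or more Ccl5 UMIs the median Ccl5 count was 24.5, 37.5 and 20, with the largest at 300, 309 and 289, while only 81 of the 818 members held 1 or 2. The median count of Nkg7 was 7, 8.5 and 9 in members with 3 or more Ccl5 UMIs and 5, 5 and 6 in members without one. Members without Ccl5 needed at least 3 Nkg7 UMIs by the rule, so the spread of Nkg7 cannot be set beside that of Ccl5. Just inside the rule, with exactly 3 UMIs of both genes together, stood 67, 25 and 40 members, of which 8, 0 and 0 had a Ccl5 UMI. Just outside, with 2 UMIs, stood 63, 30 and 33 barcodes, of which 95.2%, 96.7% and 97.0% were on the CD8 side and 5, 1 and 1 had a Ccl5 UMI.

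**Figure D2:**
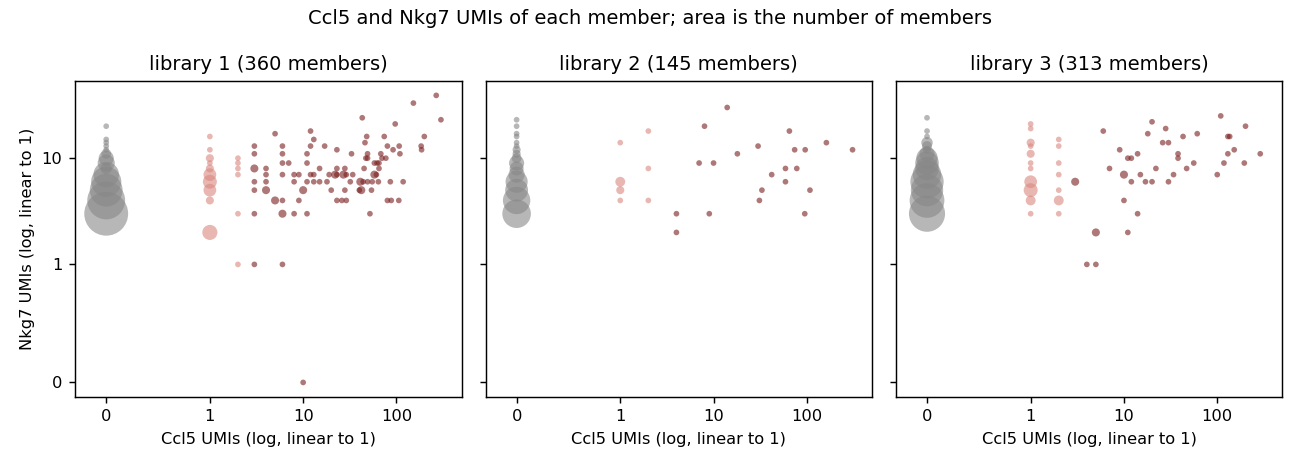
Ccl5 UMIs against Nkg7 UMIs of every member, one panel per library, on axes as labelled. Members fall into a band without Ccl5, which holds 212, 113 and 235 of them, and a spread-out set of 110, 22 and 45 with 3 or more Ccl5 UMIs, whose medians are 24.5, 37.5 and 20.

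Few members had the granzymes of effector T cells and most held Ccr7, which naive and central memory T cells share, so the "effector" of their working name was not borne out in most members and "memory" cannot be decided from these genes. Ccr7, the lymph node homing receptor, had a UMI in 79.4%, 83.4% and 84.0% of members, against 82.1%, 84.9% and 83.5% of T-gate barcodes without Ccl5 and Nkg7 UMIs and 1.95%, 0% and 1.40% of NK-gate barcodes (0 of 78 in library 2 allows up to 3.85%). B-gate barcodes, which express Ccr7 as well, reached 54.4%, 53.0% and 50.1% at a median of 3987, 3827 and 3636 UMIs. Thinned to 1500 UMIs, Ccr7 was in 34.0%, 33.8% and 37.5% of members and in 41.8%, 43.7% and 49.7% of the T-gate barcodes without Ccl5 and Nkg7. UMIs of Cxcr3 and Ccr7 stood together in 77 of 360, 16 of 145 and 42 of 313 members. Granzymes were rare: Gzma, Gzmb or Gzmk had a UMI in 6.94%, 2.07% and 6.39% of members, against 98.1%, 100% and 97.9% of NK-gate barcodes and 2.92%, 0.797% and 1.81% of B-gate barcodes, which should lack them. The share in members of library 2 was 3 of 145 barcodes, and NK-gate barcodes were shallower than members, at median UMIs of 3899, 4117.5 and 4599. The rule left out a further 36, 6 and 19 barcodes that met its other conditions but held an Ncr1 or Klre1 UMI. Their granzymes were not examined, so the low granzyme shares hold for T cells without these NK genes. The members are therefore called by their rule, as T cells with Ccl5 or Nkg7 UMIs.

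Of the marker genes given for these cells, Gzmk, a granzyme of memory CD8 T cells, had a UMI in 1.94%, 1.38% and 1.60% of members. Every Gzmk UMI of the members lay in those with 3 or more Ccl5 UMIs, at 6.36%, 9.09% and 11.1% of them. Among 4077, 1381 and 1937 B-gate barcodes a single one held Gzmk, in library 1 (0.0245%). None of the 212, 113 and 235 members without a Ccl5 UMI had one, which allows up to 1.42%, 2.65% and 1.28%. Cxcr3, a receptor for interferon-induced chemokines, had a UMI in 30.8%, 17.9% and 18.8% of members, against 0.476%, 0.315% and 0.5% of T-gate barcodes without Ccl5 and Nkg7 and 0.392%, 0.362% and 0.310% of B-gate barcodes. After thinning to 1500 UMIs the Cxcr3 shares were 7.80%, 6.90% and 5.45% of members and 0.0744%, 0.0741% and 0.105% of B-gate barcodes.

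Set against T-gate barcodes without Ccl5 and Nkg7 UMIs (630, 317 and 400 barcodes, of which 277, 150 and 189 were on the CD4 side), 65 of 6685 measured genes were at least 2-fold higher in members in every library (0.972%) and 40 were at most 0.5-fold (0.598%). A gene counted as measured with at least 30 UMIs in each library over both sets. Part of this set the CD8 and CD4 lineages apart: Cd8a was 9.30, 23.9 and 21.4-fold higher in members and Cd8b1 8.63, 18.1 and 17.8-fold. Cd4 and Cd40lg, the ligand with which CD4 T cells help B cells, were among the first 10 lower genes. The first lower gene was Ly6c1, and the others were Pdlim4, St8sia6, Trat1, Cd200r3, Tesc, Tspan32 and Ckb. Of these, Trat1, Tesc and Tspan32 were lower also among CD8-side barcodes alone, as given below. The higher genes besides Cd8a and Cd8b1 included Ly6c2, Cxcr3, Cxcr6, Il2rb, the protease inhibitor gene Cst7, the NK-type receptor genes Cd160 and Klrd1, and Ctsw, a protease of cytotoxic cells. Of the cytotoxic granule list, 11 of 18 genes were measured and 2 were higher (Ctsw and Cst7), with a median log2 ratio of 0.36 against -0.06 over all measured genes (each gene taken at the middle of its 3 library ratios). Of 20 naive and central memory genes, 2 were higher (Ccr9 and Myb) and 1 lower (Igfbp4), with a median of -0.29. Without library 2 the counts were 111 higher and 67 lower genes, and without library 1 there were 65 lower genes.

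On the CD8 side few genes passed 2-fold in every library between members and barcodes without a Ccl5 or Nkg7 UMI. Barcodes with some UMIs of these genes, but too few for the rule, were in neither set. A single Cd8a or Cd8b1 UMI without a Cd4 UMI placed a barcode on the CD8 side. How many CD4 T cells with a missed Cd4 UMI stood there was not tested. CD8-side members (339, 139 and 294) were set against CD8-side T-gate barcodes without Ccl5 and Nkg7 UMIs (82, 29 and 34, at median UMIs of 4936.5, 6091 and 5656). Of 4101 measured genes, 8 were at least 2-fold higher in members in every library (0.195%) and 4 were at most 0.5-fold (0.0975%). The 8 were Ly6c2, Ctsw, Cxcr3, Il2rb, Pglyrp1, Cxcr6, Nt5e and Cd160, and the 4 were Tspan32, Ndrg3, Trat1 and Tesc. Scaling by TMM moved the median of all genes by 0.12, 0.15 and 0.19 on the log2 scale and gave 13 higher genes in place of 8, and leaving out library 1, 2 or 3 gave 41, 46 and 21 higher and 29, 22 and 10 lower genes, since a gene then needs to pass in fewer libraries. Without barcodes scored as doublets 17 genes were higher, and without barcodes of 10 or more Lyz2 UMIs, a monocyte gene, 17 were higher, 7 of the 8 among them, and the same 4 were lower.

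Ly6c2, which encodes a form of the surface protein Ly6C found on memory-phenotype CD8 T cells, stood at 691, 438 and 534 CPM (UMIs scaled to a total of 1000000 in the set) in CD8-side members, against 44.0, 38.9 and 211 CPM in CD8-side barcodes without Ccl5 and Nkg7. The ratio was 15.7 (9.91 to 26.6), 11.3 (5.42 to 28.1) and 2.53 (1.86 to 3.51), smallest in library 3, where 1 barcode held 60.5% of the Ly6c2 UMIs of the set without Ccl5 and Nkg7. That barcode also held the most Lyz2 UMIs, and without barcodes of 10 or more Lyz2 UMIs in either set Ly6c2 in library 3 was 526 CPM in members against 93.5 CPM, a ratio of 5.63 (3.50 to 9.70). Ly6c2 has a near-identical neighbour, Ly6c1, and since how the authors' counting split reads between such copies is not stated, the level of either gene is uncertain. Ctsw stood at 202, 191 and 190 CPM in CD8-side members, against 95.4, 55.6 and 78.7 CPM, a ratio of 2.12 (1.53 to 3.02), 3.43 (1.83 to 7.26) and 2.42 (1.47 to 4.27). Ly6c2 and Ctsw were thus higher in members in all 3 libraries, with intervals above 1.

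For Cxcr3 the members' CD8 side held 72.3, 37.3 and 36.5 CPM, against 2, 0 and 1 UMIs in the set without Ccl5 and Nkg7. The ratio was 14.8 (4.04 to 123) in library 1 and 7.42 (1.30 to 297) in library 3, and in library 2 it was at least 2.23-fold higher against a floor of 3 UMIs. Il2rb, the receptor chain through which memory CD8 T cells respond to IL-15, stood at 121, 80.9 and 65.4 CPM against 36.7, 0 and 24.6 CPM, which is 3.29-fold (1.97 to 5.95), at least 4.85-fold and 2.66-fold (1.12 to 8.31). Cxcr6, a receptor for the chemokine CXCL16, was at 90.4, 70.0 and 83.2 CPM against 22, 33.4 and 4.92 CPM. Its ratios of 4.11 (2.13 to 9.09), 2.10 (0.921 to 5.89) and 16.9 (3.00 to 672) rested on 9, 6 and 1 UMIs in the set without Ccl5 and Nkg7. Cd160 rested on 1 UMI there in each library, and its intervals reached below 1 in all 3 libraries.

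No measured gene of lymph node homing and quiescence passed 2-fold in all libraries between these CD8 sets. Of 20 naive and central memory genes, 19 were measured and 0 passed in either direction, with a median log2 ratio of -0.26 against -0.04 over all measured genes. The chemokine receptor list had 4 of 12 genes measured, 2 of them higher (Cxcr3 and Cxcr6), with a median of 1.17. Of 18 cytotoxic granule genes, 9 were measured and 1 was higher (Ctsw), with a median of -0.06 that differs in sign from the list's own medians in libraries 1 and 3 (0.27 and 0.09), and of 24 effector transcription factor genes 8 were measured and 0 passed, with a median of 0.36. In CD8-side barcodes without Ccl5 and Nkg7 monocyte genes summed to 560, 3787 and 5547 CPM, against 973, 693 and 1695 CPM in all members. A single barcode of that set held 93.6% of its Lyz2 UMIs in library 2 and 96.4% in library 3. Leaving out barcodes with 10 or more Lyz2 UMIs, which were 3, 2 and 5 members and 2, 1 and 1 of the others, brought S100a4, S100a6 and Ahnak among the higher genes, with middle log2 ratios of 2.18, 1.60 and 2.32 in place of -1.35, -0.53 and -0.0047. This setting was chosen after the data were seen.

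**Figure D3:**
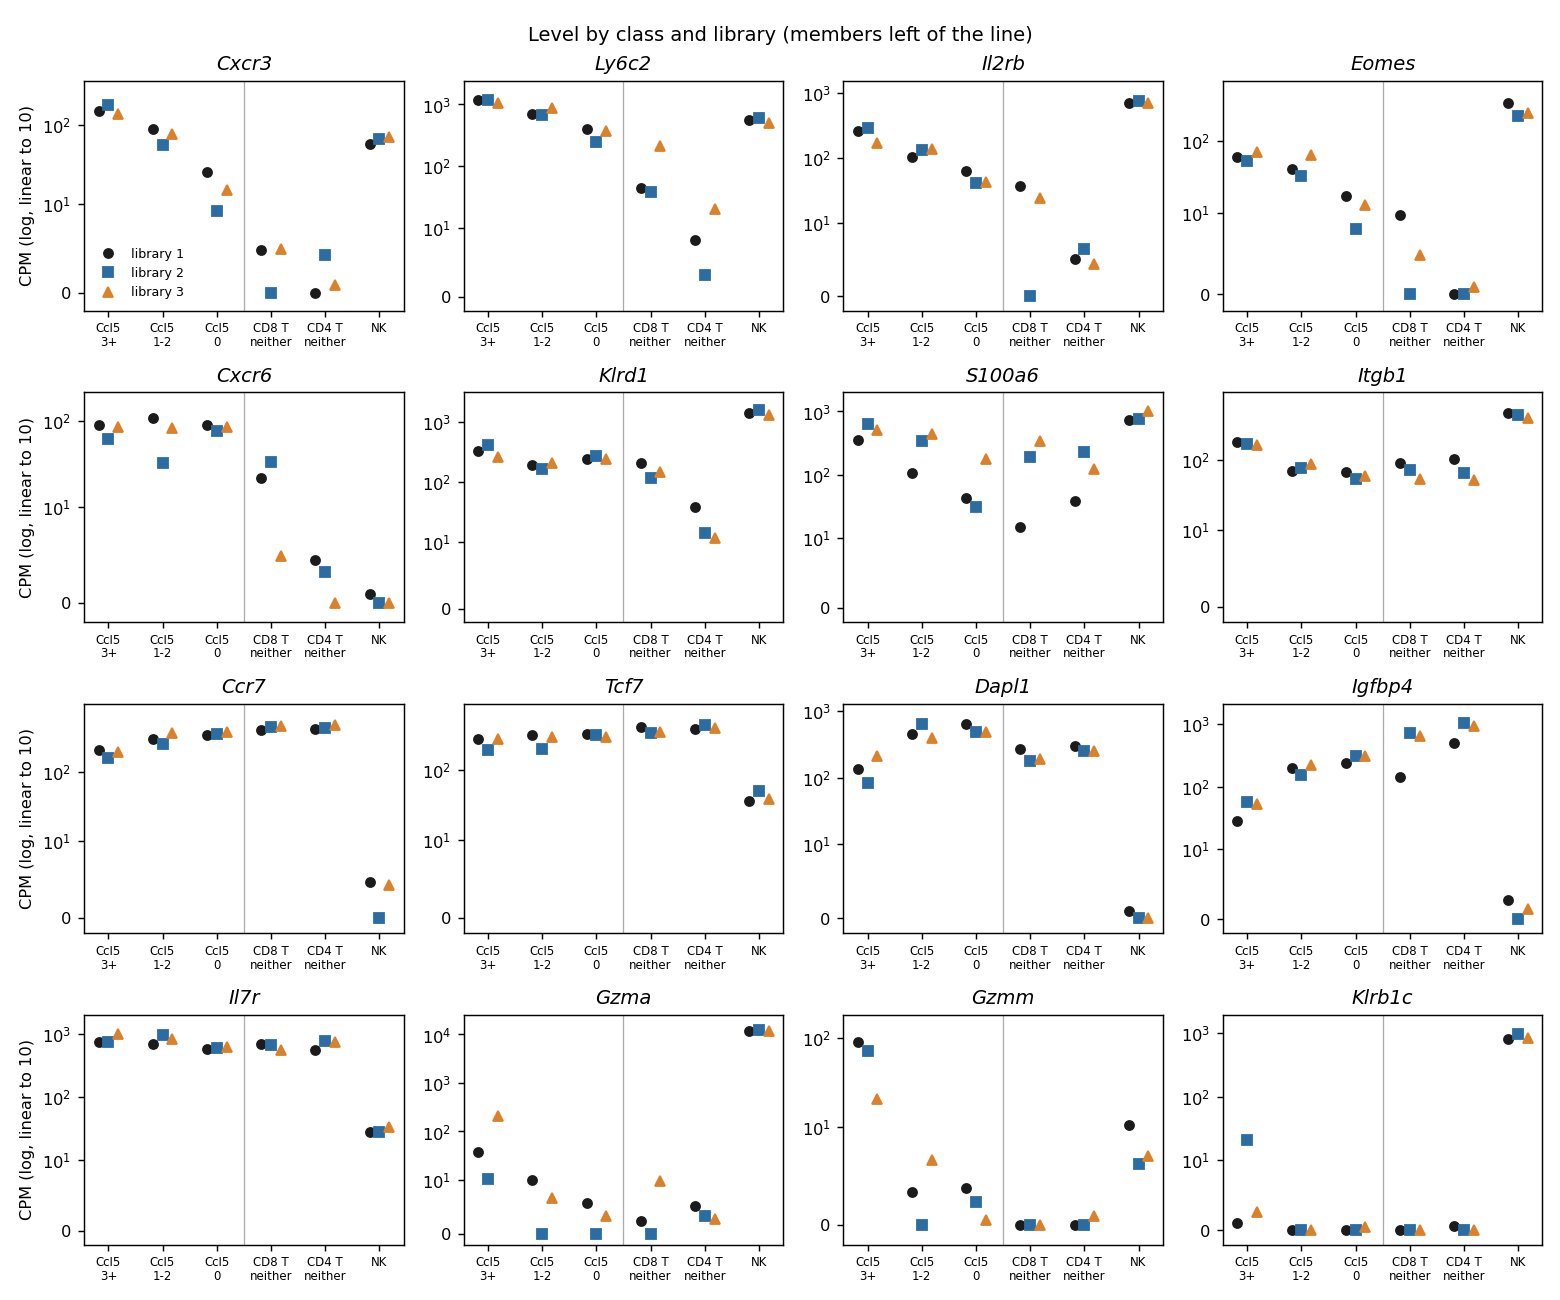
Summed level of leading genes in CPM on a log axis, linear below 10 CPM, for 16 genes. Left of the line are members with 3 or more, 1 or 2 and no Ccl5 UMIs, and right of it CD8-side and CD4-side T-gate barcodes with neither Ccl5 nor Nkg7 and NK-gate barcodes, with one marker per library. Cxcr3, at 149, 176 and 135 CPM, is highest in members with 3 or more Ccl5 UMIs, and Ccr7, at 206, 155 and 192 CPM there, is near 0 in NK-gate barcodes.

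Members were next split by their UMIs of Ccl5, a gene of the member rule. No split by Nkg7, Cxcr3, Ly6c2 or Ccr7 was made beside it. The Ccl5 split was chosen after it was seen that most members had no Ccl5 UMI. Of 3580 measured genes, 14 were at least 2-fold higher in members with 3 or more Ccl5 UMIs than in members with none in every library (0.391%), and 17 were at most 0.5-fold (0.475%). Higher were Cxcr3, S100a4, Ikzf2, Il2rb, Ahnak, Ly6c2, S100a6, Hopx, Itgb1, Il18r1, Cldnd1, Itm2a, Cd44 and Efhd2. The 12 first lower genes were Ccr9, Igfbp4, Ramp1, Dapl1, Actn2, Rgcc, Selenop, Rflnb, Als2cl, Rab3ip, Itgae and Timp2. Leaving out library 2, which has 22 members with 3 or more Ccl5 UMIs, gave 35 higher genes, and leaving out library 1, 2 or 3 gave 36, 35 and 28 lower genes, again with fewer libraries to pass in. The sets differed in depth, at median UMIs of 8939.5, 8960 and 8460 against 7262, 7420 and 7303.

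Cxcr3 stood at 149, 176 and 135 CPM in members with 3 or more Ccl5 UMIs and at 25.1, 9.23 and 15.2 CPM in members with none, a ratio of 5.94 (4.16 to 8.66), 19.0 (8.64 to 47.6) and 8.91 (5.52 to 14.6). Members with 1 or 2 Ccl5 UMIs lay between at 87.5, 55.0 and 76.1 CPM of Cxcr3. A Cxcr3 UMI was found in 64.5%, 68.2% and 53.3% of members with 3 or more Ccl5 UMIs and in 12.3%, 7.08% and 8.94% of those with none. Thinned to 1500 UMIs the shares with Cxcr3 were 14.7%, 27.3% and 18.2% against 4.25%, 2.65% and 0.851%. Il2rb was 257, 289 and 169 CPM against 62.7, 41.5 and 42.8 CPM, and Ly6c2 was 1194, 1198 and 1044 CPM against 402, 245 and 378 CPM. For Il2rb, Ly6c2 and Cxcr3 each library's value with 3 or more Ccl5 UMIs lay above every library's value without Ccl5. At 1500 UMIs Ly6c2 was in 80.7%, 77.3% and 70.5% against 25%, 19.5% and 26.8%, and in 1.22%, 1.70% and 1.79% of B-gate barcodes.

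Of 22 integrin and adhesion genes 16 were measured, 3 were higher with Ccl5 (Itgb1, Cd44 and Ly6c2) and 1 was lower (Itgae, the integrin that binds E-cadherin), with a median log2 ratio of 0.10 against -0.01 over all measured genes. Itgb1, the beta-1 integrin, stood at 186, 170 and 169 CPM against 68.3, 53.1 and 59.0 CPM, 2.73-fold (2.14 to 3.50), 3.21-fold (1.99 to 5.13) and 2.86-fold (2.07 to 3.92). Cd44, the receptor for hyaluronan used to define antigen-experienced T cells, was 2.29, 3.06 and 3.48-fold higher. Of 20 S100 and annexin genes 15 were measured and 3 were higher (S100a4, S100a6 and Ahnak), with a median log2 ratio of 0.53. S100a4, a calcium-binding protein gene, was 264, 325 and 356 CPM against 37.0, 4.62 and 85.0 CPM, but single barcodes held 21.3%, 49.2% and 46.0% of its UMIs in members with 3 or more Ccl5 UMIs. S100a6 was likewise uneven, with 13.6%, 54.1% and 32.3% in 1 barcode. Ahnak, a large scaffold protein gene, had 194, 150 and 182 CPM against 53.9, 27.7 and 35.2 CPM.

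Among regulators, 9 of 24 effector transcription factor genes were measured and 2 were higher with Ccl5, Ikzf2 and Hopx, with a median log2 ratio of 0.42. Ikzf2, which encodes the Ikaros family factor Helios, stood at 84.3, 114 and 70.1 CPM against 13.2, 17.3 and 11.9 CPM, a ratio of 6.41 (3.93 to 10.9), 6.56 (3.25 to 13.6) and 5.89 (3.23 to 10.8). An Ikzf2 UMI was found in 16.4%, 27.3% and 13.3% of members with 3 or more Ccl5 UMIs and in 8.49%, 10.6% and 7.23% of those with none, beside 1.01%, 0.0724% and 0.207% of B-gate barcodes. Hopx, a homeodomain-only protein gene, had 210, 279 and 216 CPM against 64.5, 40.4 and 70.4 CPM, a ratio of 3.26 (2.56 to 4.17), 6.90 (4.43 to 10.9) and 3.06 (2.30 to 4.06). Eomes, the T-box factor of memory CD8 T cells, had 59.4, 51.6 and 70.1 CPM against 17.5, 8.08 and 13 CPM, but at 17 UMIs in library 2 over both sets it was under the minimum for a ratio. Tbx21, which encodes T-bet, was low at 18.7, 25.8 and 15.6 CPM against 1.88, 0 and 3.25 CPM. Il18r1, a chain of the IL-18 receptor, was 3.69, 3.54 and 3.86-fold higher with Ccl5.

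Of 20 naive and central memory genes 19 were measured, 3 were lower in members with 3 or more Ccl5 UMIs (Ccr9, Dapl1 and Igfbp4), 0 were higher, and the median log2 ratio was -0.33. Ccr9, a gut and thymus homing receptor, had 1, 0 and 4 UMIs in members with 3 or more Ccl5 UMIs, against 120, 172 and 103 CPM in members with none. Its ratio was 0.00865 (0.000218 to 0.0488) in library 1 and 0.101 (0.0272 to 0.263) in library 3. Dapl1 was 133, 82.6 and 208 CPM against 638, 477 and 485 CPM, and Igfbp4, an insulin-like growth factor binding protein gene, 28.1, 56.8 and 51.9 CPM against 235, 304 and 304 CPM. Igfbp4 and Dapl1 were in every library below each value of the members without Ccl5. Ccr7 itself was 206, 155 and 192 CPM against 337, 351 and 368 CPM, a ratio of 0.613 (0.518 to 0.722), 0.442 (0.293 to 0.644) and 0.523 (0.405 to 0.665), past 0.5-fold in library 2 alone. Tcf7, a factor of naive and memory T cells, had ratios of 0.861, 0.604 and 0.940.

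Many members with 3 or more Ccl5 UMIs held Ccr7 beside Cxcr3. Ccr7 had a UMI in 61.8%, 59.1% and 51.1% of them, against 88.7%, 88.5% and 89.8% of members with no Ccl5 UMI, and thinned to 1500 UMIs it was in 24 of 109, 4 of 22 and 11 of 44, against 86 of 212, 42 of 113 and 96 of 235. UMIs of Cxcr3 and Ccr7 stood together in 41.8%, 31.8% and 26.7% of members with 3 or more Ccl5 UMIs, and a granzyme (Gzma, Gzmb or Gzmk) was found in 13.6%, 9.09% and 24.4%. Il7r, the survival receptor of naive and memory T cells, was 730, 749 and 981 CPM with Ccl5 and 570, 587 and 606 CPM without. Klrg1, a receptor of short-lived effector cells, had 2, 1 and 3 UMIs in all members with 3 or more Ccl5 UMIs. Of 18 cytotoxic granule genes 7 were measured and 0 passed 2-fold in all libraries in this split, with a median log2 ratio of 0.67. Prf1, which encodes perforin, was 53.1, 46.5 and 67.5 CPM with Ccl5 and 43.2, 24.2 and 36.3 CPM without.

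**Figure D4:**
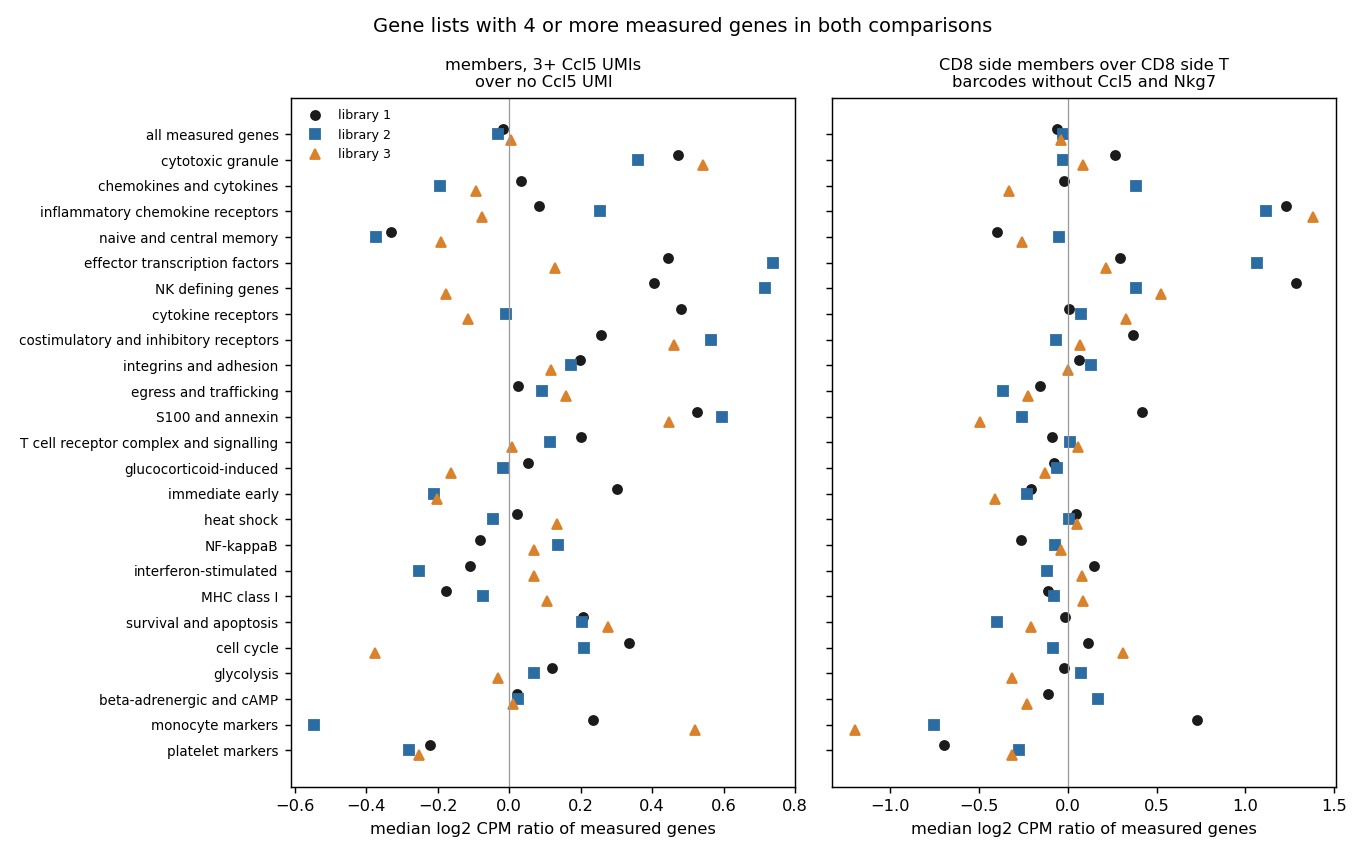
Median log2 ratio of the measured genes of each list in each library, for members with 3 or more over members with no Ccl5 UMI (left) and for CD8-side members over CD8-side T-gate barcodes without Ccl5 and Nkg7 (right), with all measured genes in the top row. On the left the S100 and annexin list stands at 0.53, 0.60 and 0.45 in libraries 1, 2 and 3 and the naive and central memory list at -0.33, -0.37 and -0.19, and on the right the inflammatory chemokine receptors stand at 1.23, 1.11 and 1.38.

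A minority of members had UMIs of gamma-delta T cell genes, as had some T-gate barcodes without Ccl5 and Nkg7. Trdc or a Tcrg constant gene had a UMI in 7.5%, 5.52% and 2.56% of members, being 17.3%, 27.3% and 8.89% of those with 3 or more Ccl5 UMIs and 2.83%, 0.885% and 1.70% of those with none. In B-gate barcodes the share was 0.491%, 0.145% and 0.465%, and in NK-gate barcodes 26.8%, 16.7% and 25.9%. In CD8-side T-gate barcodes without Ccl5 and Nkg7 it was 7.32% in library 1 (6 of 82), near that of members. There it was 0 of 29 in library 2 (up to 10.3%) and 0 of 34 in library 3 (up to 8.82%). Of the 11 genes listed for gamma-delta T cells, 9 had a UMI in members and Trdv4 and Il23r were at 0. The list summed to 111, 119 and 197 CPM with 3 or more Ccl5 UMIs and to 7.52, 3.46 and 10.8 CPM without Ccl5, beside 152, 134 and 112 CPM in NK-gate barcodes. Over all members it summed to 49.8, 26.1 and 42.2 CPM, against 28.6, 35.4 and 14.3 CPM in all T-gate barcodes without Ccl5 and Nkg7. Members were thus the lower set in library 2. Trac had a UMI in 90%, 95.5% and 91.1% of members with 3 or more Ccl5 UMIs. Trdc was 63.5, 41.3 and 127 CPM against 3.13, 2.31 and 3.25 CPM, with 53.1% of its library 3 UMIs in 1 barcode. On the CD8 side were 86.4%, 86.4% and 82.2% of members with 3 or more Ccl5 UMIs and 98.1%, 98.2% and 96.2% of those with none. The part of gamma-delta cells in the Ccl5 split was not tested, and with CD8-side members alone 12 genes were higher and 15 lower.

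NK-gate barcodes (257, 78 and 143) carry Ncr1 or Klre1 and no Cd3 UMI, and by their rule also at least 3 UMIs of Ccl5 and Nkg7 together. Members were chosen for having Cd3 UMIs and no Ncr1 or Klre1 UMI, so a contrast in NK cell genes was in part built into the gates. Members had lower levels of most measured NK receptor genes and of Gzma, Gzmb and Prf1 than these barcodes and a higher level of Ccr7. Of 4886 measured genes, 172 were at least 2-fold higher in members in every library (3.52%) and 429 were at most 0.5-fold (8.78%). The median gene stood at -0.47 on the log2 scale, and with TMM scaling, which moved the median by 0.54, 0.51 and 0.48, the counts were 328 higher and 193 lower. Without library 2 the counts were 298 and 816. Of 24 NK lectin-like and activating receptor genes 19 were measured and 17 were lower in members, with a median of -6.67, and of 18 cytotoxic granule genes 14 were measured and 10 were lower, with a median of -1.70. Of 20 naive and central memory genes 19 were measured and 12 were higher, with a median of 2.95. Gzma, which encodes granzyme A, was 16.8, 1.74 and 35.5 CPM in members against 11529, 12557 and 11547 CPM in NK-gate barcodes, and single barcodes held 27.1% and 28.9% of the members' Gzma UMIs in libraries 1 and 3. Klrb1c, which encodes NK1.1, had 1, 4 and 2 UMIs in members against 814, 961 and 824 CPM. Il7r was 636, 643 and 689 CPM against 28.2, 28.1 and 33.7 CPM. Klra8, Klra4, Klri2 and Klrb1f, further NK receptor genes, were among the first lower genes, and the first higher genes besides Il7r were Cd8b1, Dapl1, Cd8a, Ccr7 and Igfbp4. Cxcr6 was at 92.2, 71.2 and 84.8 CPM in members and at 1, 0 and 0 UMIs in NK-gate barcodes, while Cxcr3 did not pass 2-fold in either direction at 73.2, 40.8 and 40.6 CPM against 57.4, 65.5 and 68.9 CPM.

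Across the 3 libraries the members' profiles differed in 66 of 7303 genes (0.904%), counted where the highest library exceeded the lowest at least 2-fold by the lower bound of the ratio, among genes with at least 50 UMIs. The highest value was in library 1 for 20 genes, in library 2 for 8 and in library 3 for 38, and for 50 of the 66 the same pair of libraries differed at least 2-fold in T-gate barcodes without Ccl5 and Nkg7. The 8 first genes were Chil3, Wfdc17, Ifitm1, Lcn2, Saa3, Retnlg, Lrg1 and Hp, all known from neutrophils, monocytes or the acute phase response. Chil3 was 1.75, 46.0 and 154 CPM in members, with 45.8% of its library 3 UMIs in 1 barcode, and 7.22, 105 and 201 CPM in T-gate barcodes without Ccl5 and Nkg7. Retnlg was 2.10, 35.6 and 61.2 CPM, and Saa3 had 89.3% of its UMIs of library 3 in 1 barcode. Over 15 neutrophil genes, 12 with a UMI and Camp, Ltf and Stfa2 at 0, the sum was 173, 376 and 476 CPM. Monocyte genes (14 of 14 with a UMI) summed to 973, 693 and 1695 CPM, B cell genes (15 of 15) to 663, 360 and 389 CPM, platelet genes (10 of 10) to 4113, 1944 and 1901 CPM and erythroid genes (10 of 10) to 1470, 2551 and 3958 CPM. Of the haemoglobin gene Hbb-bs single barcodes held 70.5%, 87.5% and 50.9% of the members' UMIs, and of Lyz2 47.0%, 22.2% and 41.6%. Their part in the differences between libraries was not tested.

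Among signalling genes, Socs3, a feedback inhibitor of cytokine signalling, was 21.7, 142 and 158 CPM in members and 42.1, 253 and 278 CPM in T-gate barcodes without Ccl5 and Nkg7. Its highest over lowest ratio in members was 7.26 (5.55 to 9.65). Junb, an AP-1 factor, was 66.6, 179 and 170 CPM in members and 64.4, 245 and 212 CPM in the T-gate barcodes without Ccl5 and Nkg7. Ddit4, a glucocorticoid- and stress-induced inhibitor of mTOR signalling, was 13.7, 60.8 and 50.5 CPM against 9.81, 75 and 73.1 CPM. Library 1 was thus lowest for Socs3, Junb and Ddit4 in both sets of T cells, and no label says which group it is. Tsc22d3, a glucocorticoid-induced gene also called Gilz, was 187, 383 and 368 CPM in members. Over the glucocorticoid-induced list, with 10 genes measured, the median departure from each gene's mean over the libraries was -0.44, 0.35 and 0.12 on the log2 scale, and 2 genes (Ddit4 and Dusp1) passed the lower bound. The 10 immediate early genes gave -0.35, 0.16 and 0.11, with Junb alone passing, and 27 interferon-stimulated genes gave -0.20, -0.10 and 0.25, with 4 passing (Ifit3, Ifi27l2a, Oasl2 and Zbp1), against -0.02, 0.03 and 0.00 over all measured genes. Ifit3 was 16.8, 18.2 and 61.9 CPM in members.

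Other genes were highest in library 1, where the share of members with 3 or more Ccl5 UMIs was also highest (30.6%, against 15.2% and 14.4%). The part of that share in their levels was not tested. Cxcr3 was 73.2, 40.8 and 40.6 CPM over all members, a ratio of 1.80 (1.42 to 2.30), but 149, 176 and 135 CPM in members with 3 or more Ccl5 UMIs. Klrk1, which encodes the activating receptor NKG2D, was 34.0, 9.56 and 8.29 CPM over all members, 88.5, 41.3 and 20.8 CPM in those with 3 or more Ccl5 UMIs and 5.64, 3.46 and 7.04 CPM in those with none. Gzmm, a granzyme of innate-like lymphocytes, was 33.3, 13.9 and 4.34 CPM over all members, 91.6, 72.3 and 20.8 CPM in those with 3 or more Ccl5 UMIs and 3.76, 2.31 and 0.541 CPM in those with none. Gzmm and Klrk1 were highest in library 1 also among members with 3 or more Ccl5 UMIs, where libraries 2 and 3 had 8 Klrk1 UMIs each and 1 barcode of library 2 held 50% of its Gzmm UMIs.

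**Figure D5:**
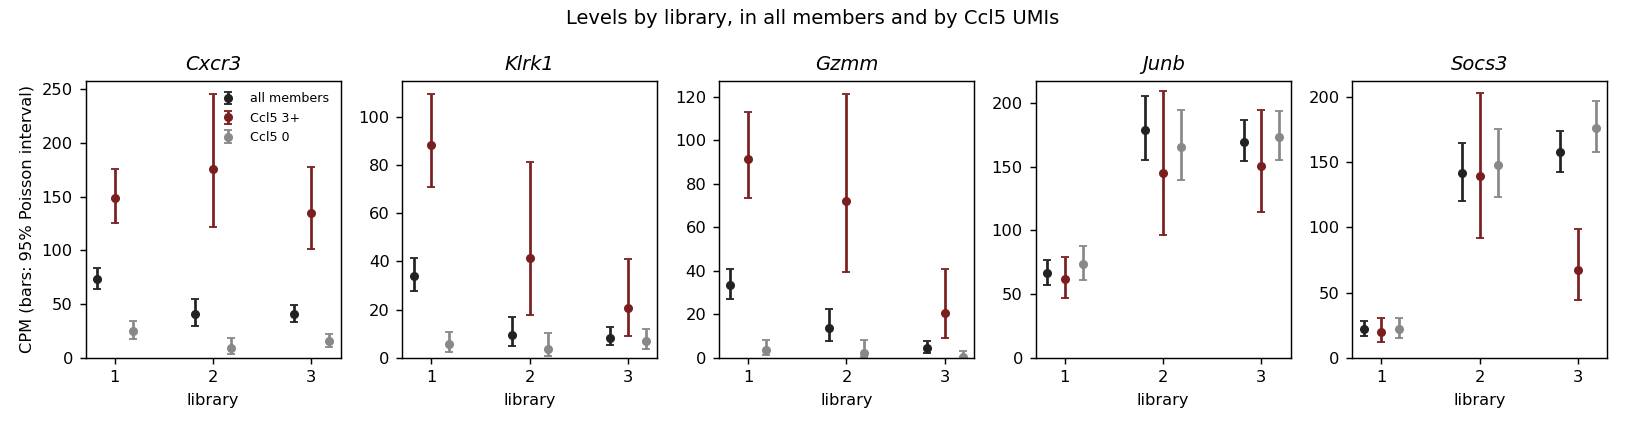
Level in CPM of Cxcr3, Klrk1, Gzmm, Junb and Socs3 in each library for all members, members with 3 or more Ccl5 UMIs and members with none, with exact 95% Poisson intervals as bars. Socs3 and Junb are lowest in library 1 over all members, at 21.7 and 66.6 CPM, and Klrk1 and Gzmm are highest there, at 34.0 and 33.3 CPM.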

How the data were processed

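Blood leukocytes were measured in 3 droplet libraries, 1 per group, each pooled from 3 mice. The deposited values are raw UMI counts per gene and barcode in 1 matrix, written by Cell Ranger 6.0.2 per the file headers. Per the submitters' processing notes, the build was GRCm38 and the tools were Cell Ranger 4.0.0, Trimmomatic 0.39, R 4.0.2 and Seurat 3.0. The sources used here do not say which Cell Ranger version set the counts or by what rule barcodes were kept as cells.

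Members and lists were chosen with earlier results of these data known, and the split by Ccl5 was added after the data were seen. Counts were summed per library and set of barcodes and divided by the set's total (CPM, python 3.11.15, numpy 2.4.6, scipy 1.17.1). The alternative scaling was TMM (edgeR 4.0.16). A gene was called where its ratio was at least 2 (or at most 0.5) in all 3 libraries, given 30 or more UMIs per library and more than 3 in one of the sets. A set with 0 UMIs took a floor of 3. Named genes were those whose interval bound nearest 1 lay farthest from 1 in the least favourable library: the first 20 higher and 10 lower against T-gate barcodes without Ccl5 and Nkg7, 6 each way against NK-gate barcodes, 8 for the spread over libraries and, added with the comparisons, 12 each way for the Ccl5 split and all called genes on the CD8 side. The genes of the member rule and those of haemoglobin, T cell receptor segments, immunoglobulins and mitochondria were not named from the ranking. Members of the lists could also be named. Shares were also computed after thinning each barcode to 1500 UMIs, leaving out shallower ones. The B gate held barcodes with at least 3 UMIs of Cd79a and Cd79b and no Cd3 UMI. Shares in B-gate and NK-gate barcodes are given beside those in members. They show the level of free RNA only for genes that the cells of the gate do not express. Ccr7 in B-gate barcodes, and granzymes, Cxcr3 and gamma-delta genes in NK-gate barcodes, are not to be read as such a level.

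Doublets were scored with Scrublet (scanpy 1.11.5) at an expected 6%. The automatic threshold marked 0.0983% of library 1, so the 6% highest scores of each library were taken instead. This marked 14 of 818 members (1.71%), which were kept in the main results. Of all barcode sequences 61 occurred in 2 libraries, 8 members had such a sequence, and no sequence was a member in more than 1 library. The steps were tested on simulated data. Promoters were matched by symbol in RefSeq. Il32, Klra13, Cd244a and Folr4 of the lists had no row of that name.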

Additional observations from a re-analysis of the deposited data

How the results depend on the processing

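Single genes were recomputed only if they were in the lists or named from the rankings, and only where the alternative run measured them. Among these the direction held for every gene past the 2-fold limit, and 0 such values reversed. Runs that changed only the UMI minimum left each ratio as it was. Leaving out 1 library cannot reverse a gene that passed in all 3. Both kinds of run therefore say nothing on direction, though their values are in the counts that follow. The other called genes were not checked singly. Of the single-gene values recomputed, 9623 kept their side of the limit, 135 passed it where they had not, 56 no longer passed it and 10 passed it with the opposite sign (Ahnak, S100a4, S100a6 and Tyrobp on the CD8 side). With at most 5% mitochondrial UMIs in library 1, members were 25.9% of the T gate, 89.6% of them on the CD8 side, and 45.8% had 3 or more Ccl5 UMIs. With at least 2 UMIs of Ccl5 and Nkg7 the members were 36.6%, 33.5% and 43.5% of the T gate, and with at least 5 they were 21.5%, 18.6% and 29.6%, of which 44.0%, 22.7% and 19.1% had 3 or more Ccl5 UMIs. Thinned to 1500 UMIs they were 10.3%, 6.11% and 10.2% of the T gate and 79.4%, 64.3% and 74.3% on the CD8 side. Thinning also removed coreceptor UMIs, so members off the CD8 side in this run can have UMIs of neither coreceptor and are not a count of CD4 T cells.

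The counts of genes followed the UMI minimum. With no minimum the higher and lower counts were 156 and 101 against T-gate barcodes without Ccl5 and Nkg7, 18 and 145 on the CD8 side, and 72 and 33 in the Ccl5 split, and 898 genes were lower against NK-gate barcodes. With 3 times the minimum (90 UMIs) they were 24 and 18, 2 and 1, 3 and 6, and 97 and 159. TMM scaling gave 13 higher genes on the CD8 side and 328 higher and 193 lower against NK-gate barcodes. Without doublets the CD8 side had 17 higher genes, without the barcode with most Lyz2 UMIs of the set without Ccl5 and Nkg7 19, without barcodes of 10 or more Lyz2 UMIs in either set 17 (both chosen after seeing the data), and with 1 or more Ccl5 UMIs the Ccl5 split had 10 lower genes. Leaving out 1 library asks a gene to pass in fewer libraries. It gave 71 to 111 higher and 60 to 67 lower genes against T-gate barcodes without Ccl5 and Nkg7, 21 to 46 and 10 to 29 on the CD8 side, 19 to 35 and 28 to 36 in the Ccl5 split, and 193 to 298 and 507 to 816 against NK-gate barcodes. Requiring no Tyrobp UMI moved no count by over 1.5 times. The spread over libraries gave 71 genes with TMM, 49 without doublets, 65 on the CD8 side and 57 in members without Ccl5. The ratios were taken within each library, which pairs the sets by library. No paired test was run on them, because the sets were chosen by UMIs of the same barcodes. CD4-side members (2, 0 and 5) were too few for the planned comparisons with CD4-side T-gate barcodes and with CD8-side members, which were not run. The number of barcodes limits the precision of the sets of 22 members with 3 or more Ccl5 UMIs in library 2 and of 29 and 34 CD8-side barcodes without Ccl5 and Nkg7 in libraries 2 and 3.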
